A study of Schizosaccharomyces pombe with 22 samples.

Results

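Tf2 elements are the long terminal repeat retrotransposons of the fission yeast Schizosaccharomyces pombe, and their probes were followed here on every array of a study of Pst3, a Sin3 homolog. Probes were chosen by name, as every probe whose name begins with tf2 (after an IGR prefix on the intergenic arrays). This gave 10 of 5058 names on arrays with open reading frame (ORF) probes and 1 of 4941 names on arrays with intergenic region (IGR) probes. The rule itself uses names and no measured value. A Tf2 element consists of a pair of long terminal repeats around 1 reading frame that encodes Gag, protease, reverse transcriptase and integrase. The 5′ repeat carries the promoter, the RNA is the template for a DNA copy, and new copies enter the genome mostly by recombination with older ones. In S. pombe, Tf2 RNA is known to be held low by histone deacetylases, by the HIRA histone chaperone and by CENP-B homologs such as Abp1, and to be raised by the sterol regulator Sre1 when oxygen is low.

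The groups used were as follows. RNA came from the strain Hu1505, labelled pst3nmt OFF, in which pst3 is under the nmt promoter (a promoter shut off by thiamine), on 2 arrays, 1 labelled with Cy5 and 1 with Cy3. RNA from wild type was measured on 8 arrays, whose titles carry 4 codes (803 on replicates 1 and 4, 804 on 5 and 6, 806 on 2 and 8, 809 on 3 and 7). The labels do not say what a code stands for, so the 8 arrays may come from fewer RNA samples. Deviations from the print means had an r of -0.38 to 0.02 between arrays of 1 code. Between arrays of different codes r ran from -0.72 to 0.53. Only replicates 1 and 4 share both code and print (r = -0.38), and subtracting a print mean itself lowers r within a print. These values therefore cannot tell whether arrays of 1 code share RNA. Chromatin of a strain with GFP-tagged Pst3 was set against wild-type input on 2 IGR arrays, and against beads on 1 slide read as the samples 7-3 and 7-5, each with IGR and ORF probes. Histone H3 was immunoprecipitated in strains labelled hst2D, hst4D and wild type, on 1 IGR and 1 ORF array each. The labels gave no age, medium or number of cultures, so any p-value here reflects array-to-array spread alone, part of which may be technical. Whether the strains differed from wild type in anything else is not given.

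The label was checked first, and the targeted gene did not follow it. On the arrays labelled pst3 repressed the pst3 probe read 10.22 and 10.07 on the log2 scale, against 9.76 to 10.94 (median 10.11) on the wild-type arrays (difference -0.06, SE 0.39, limma adjusted p = 0.954). Among thiamine-repressed genes, thi2 rose by 1.93 (SE 0.49, limma adjusted p = 0.0267), nmt1 differed by 1.38 (adjusted p = 0.0612) and thi4 by 0.45 (adjusted p = 0.676). Directions below are therefore those of the arrays labelled pst3 repressed. These arrays had a print of their own, as had wild-type replicates 1 to 5 and replicates 6 to 8, so that print and strain cannot be told apart. Wild-type replicate 3 correlated least with the other wild-type arrays (median r = 0.60 over features), followed by replicate 1 (0.61), while the other 6 had medians of 0.73 to 0.77.

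The elements are nearly the same sequence, which bears on every value below. The reference genome (RefSeq, assembly ASM294v3) annotates 13 Tf2 elements, and the array files name no genome build, so positions are those of the reference. Probes named tf2 matched Tf2-1, Tf2-2, Tf2-3, Tf2-5, Tf2-6, Tf2-7 and Tf2-8 on chromosome I, Tf2-10 and Tf2-11 on chromosome II and Tf2-12 on chromosome III. Tf2-4, Tf2-9 and Tf2-13 have no probe under such a name, but the probe SPCC1494.11c lies at the locus annotated as Tf2-13. Of the 13 coding sequences 11 are 4002 bases long, and these 11 differ at 18 positions (0.45%). Tf2-10 and Tf2-13 are 4001 bases long and lack 1 base, so that their reading frame shifts at different points. Over all 78 pairs of elements the differences number 0 to 20 bases, with a median of 4.

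Sequence sorts the elements into sets of identical copies. Tf2-1, Tf2-2, Tf2-4 and Tf2-9 share 1 coding sequence, Tf2-3, Tf2-5, Tf2-6 and Tf2-12 share another, and Tf2-7 and Tf2-8, which stand in tandem, have one in common too. Tf2-10, Tf2-11 and Tf2-13 are each alone. The next lines show a pair of stretches rich in variable positions among the copies of full length, since they show how few bases separate the copies. Each is 99 bases of the coding strand in ASM294v3, with the 4 variable positions of the stretch in capitals. The first stretch is at bases 608 to 706 of the coding sequence.
Tf2-1 (chrI:1466454-1466552, plus strand): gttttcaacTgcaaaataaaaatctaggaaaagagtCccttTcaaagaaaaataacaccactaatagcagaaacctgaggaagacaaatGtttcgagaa
Tf2-3 (chrI:2930500-2930598, minus strand): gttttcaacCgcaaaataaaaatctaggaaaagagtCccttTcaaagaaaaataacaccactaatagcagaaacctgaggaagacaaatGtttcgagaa
Tf2-7 (chrI:5194440-5194538, minus strand): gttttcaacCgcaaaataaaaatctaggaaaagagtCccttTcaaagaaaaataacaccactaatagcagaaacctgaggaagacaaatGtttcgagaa
Tf2-11 (chrII:4415264-4415362, plus strand): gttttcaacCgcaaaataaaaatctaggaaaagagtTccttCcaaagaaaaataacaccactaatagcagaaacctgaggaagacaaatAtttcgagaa

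In that stretch Tf2-11 stands apart and Tf2-3 and Tf2-7 are alike. The next stretch, bases 1610 to 1708, groups them differently, with Tf2-7 and Tf2-11 alike and Tf2-1 and Tf2-3 alike.
Tf2-1 (chrI:1467456-1467554, plus strand): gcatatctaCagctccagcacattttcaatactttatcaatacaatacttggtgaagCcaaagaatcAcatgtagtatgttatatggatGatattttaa
Tf2-3 (chrI:2929498-2929596, minus strand): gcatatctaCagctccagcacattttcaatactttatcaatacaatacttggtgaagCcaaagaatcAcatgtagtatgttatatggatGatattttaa
Tf2-7 (chrI:5193438-5193536, minus strand): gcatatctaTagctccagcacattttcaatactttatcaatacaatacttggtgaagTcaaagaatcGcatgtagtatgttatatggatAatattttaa
Tf2-11 (chrII:4416266-4416364, plus strand): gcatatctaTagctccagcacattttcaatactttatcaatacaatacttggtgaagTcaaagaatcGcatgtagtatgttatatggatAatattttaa

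The long terminal repeats vary a little more. The 5′ repeat is 349 bases long in 11 of 13 elements, 356 in Tf2-7 and 293 in Tf2-11, where the annotation gives a shorter copy. Over the 66 pairs that leave out Tf2-11 the 5′ repeats differ at 0 to 8 bases, and 17 pairs are identical. Pairs without Tf2-7 differ at no more than 2 bases. The repeat annotated for Tf2-7 is longer and begins with AG where those of 349 bases begin with TG. The larger counts in its pairs thus include the difference in annotated length. The spotted probe sequences were not used here, and a probe for 1 element can bind RNA or DNA of the others, so a probe's signal is not the output of that locus alone.

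Most Tf2 probes had higher RNA readings in the strain labelled pst3 repressed than in wild type. The median difference of 9 elements was 1.19 on the log2 scale, beside -0.02 over all 4707 features. Of the 9 differences 8 were above 0, where 48.7% of all features were. Only Tf2-3 rose past the threshold of 0.05 in limma with Benjamini-Hochberg adjustment over all features. Of all features, 4.93% were called higher (9.86% in both directions), so 1 call among 9 elements is not far from that share. An unadjusted p under 0.05 was seen in 5 of 9. The share of all features at that unadjusted threshold was not counted, so nothing is read from it. Values are log2 spot intensities after background correction and quantile normalisation, averaged over the spot sets and channels of an array. Wild-type replicate 1 had only 1 channel and 1 spot set, where the other wild-type arrays had both of each. Each difference is the mean of the arrays labelled pst3 repressed minus the mean of wild type. As the RNA is from bulk cultures, more cells with Tf2 RNA and more RNA per cell cannot be told apart.

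**Figure D1:**
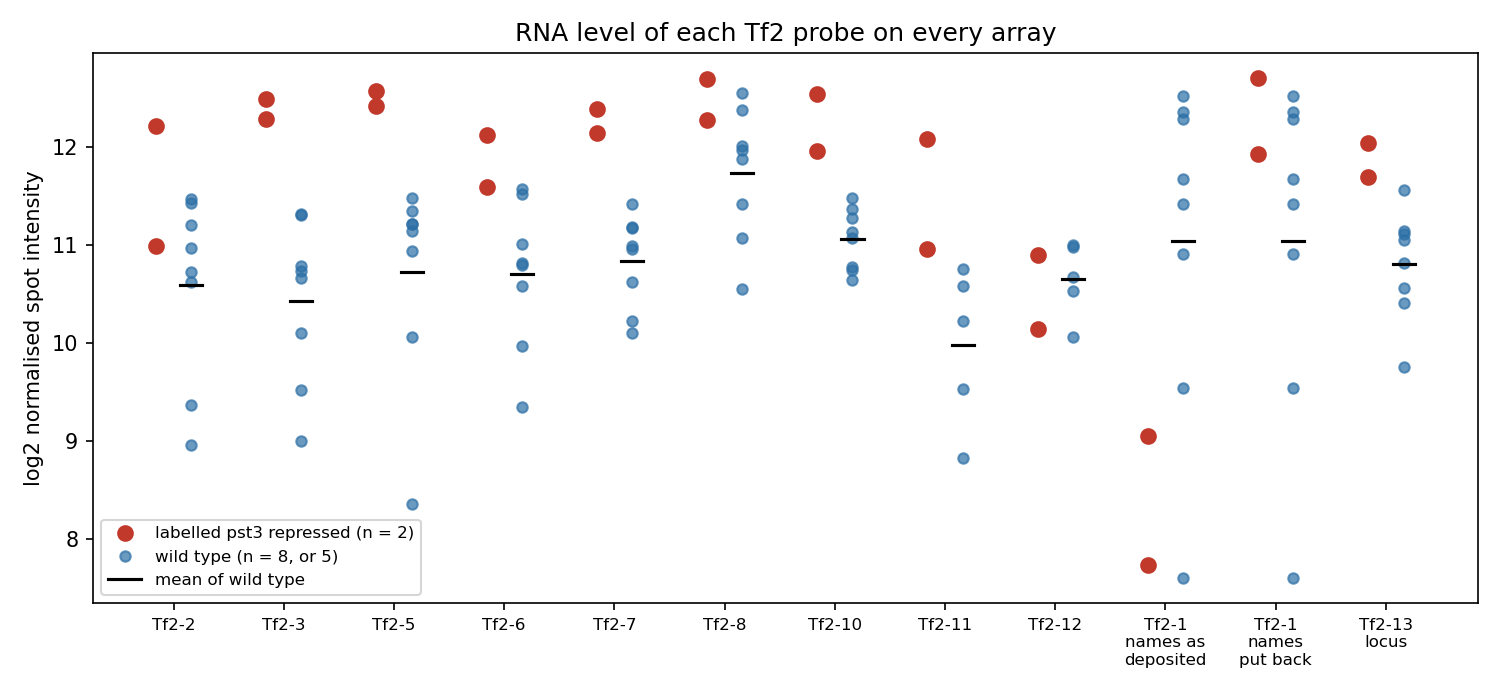
Each point is the log2 normalised intensity of a probe on 1 array, with the arrays labelled pst3 repressed on the left of each pair (n = 2) and wild type on the right (n = 8, or 5 for Tf2-11 and Tf2-12), and a bar at the wild-type mean. Tf2-3, Tf2-5, Tf2-6, Tf2-7, Tf2-10 and Tf2-11 show no overlap between the groups, Tf2-2, Tf2-8 and Tf2-12 do, and Tf2-1 is shown under both readings of its name.

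Tf2-3 read 12.49 and 12.28 on the arrays labelled pst3 repressed, against 9.00 to 11.31 (median 10.69) in wild type. Its difference was 1.96 (SE 0.57, limma adjusted p = 0.0471), a ratio of 3.89 on the linear scale, and the groups did not overlap. It passed in 11 of 25 settings of the processing, the one used here included, with a difference of 1.67 to 2.44. It was lost without either of the arrays labelled pst3 repressed and without wild-type replicate 1, 2, 4, 6 or 7 (adjusted p of 0.0551 to 0.323).

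Tf2-7 read 12.38 and 12.14 on the arrays labelled pst3 repressed, against 10.10 to 11.42 (median 10.98) in wild type. It missed the threshold narrowly, with a difference of 1.42 (SE 0.43, limma adjusted p = 0.0505), and passed without wild-type replicate 3 (adjusted p = 0.0410) or 6 (adjusted p = 0.0435). Tf2-8, its tandem neighbour of identical coding sequence, read 12.69 and 12.27 on the arrays labelled pst3 repressed, against 10.55 to 12.55 (median 11.92) in wild type. Tf2-8 overlapped between the groups and had a difference of 0.76 (SE 0.51, limma adjusted p = 0.389).

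Tf2-5 read 12.41 and 12.57 on the arrays labelled pst3 repressed, against 8.36 to 11.48 (median 11.18) in wild type. Its difference was 1.77 (SE 0.68, limma adjusted p = 0.121), and without wild-type replicate 1, which gave the lowest value, it was 1.43 (adjusted p = 0.0495). Tf2-6 read 11.59 and 12.12 on the arrays labelled pst3 repressed, against 9.34 to 11.57 (median 10.80) in wild type, so that the groups barely parted (difference 1.15, SE 0.54, limma adjusted p = 0.208). Tf2-12 carries the same coding sequence as Tf2-3, Tf2-5 and Tf2-6, and its groups overlapped. It read 10.89 and 10.14 on the arrays labelled pst3 repressed, against 10.98, 10.53, 11.00, 10.06 and 10.67 on the 5 wild-type arrays that carried it (difference -0.13, SE 0.46, limma adjusted p = 0.903). Among these identical copies the difference ran from -0.13 to 1.96, and the elements were not tested against each other.

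Tf2-10, one of the elements whose frame lacks a base, read 12.54 and 11.96 on the arrays labelled pst3 repressed, against 10.64 to 11.48 (median 11.10) in wild type. It had the narrowest wild-type spread of the 9 elements (SD 0.31, n = 8) and a difference of 1.19 (SE 0.38, limma adjusted p = 0.0659), which passed without wild-type replicate 3 (adjusted p = 0.0465). Tf2-11 read 12.08 and 10.96 on the arrays labelled pst3 repressed, against 8.82, 10.22, 10.75, 9.53 and 10.58 on the wild-type arrays that carried it. Its groups did not overlap, but the arrays labelled pst3 repressed had an SD of 0.79 (n = 2), and the difference of 1.54 (SE 0.61) had a limma adjusted p of 0.141. Tf2-2 read 10.99 and 12.21 on the arrays labelled pst3 repressed, against 8.96 to 11.47 (median 10.85) in wild type (difference 1.01, SE 0.65, limma adjusted p = 0.371), with the first of these arrays inside the wild-type range. In all, 6 of 9 elements had both arrays labelled pst3 repressed above every wild-type array (Tf2-3, Tf2-5, Tf2-6, Tf2-7, Tf2-10 and Tf2-11), where 13% of all features did (613 of 4707). The probe SPCC1494.11c at the Tf2-13 locus read 12.04 and 11.69 on the arrays labelled pst3 repressed, against 9.75 to 11.56 (median 10.93) in wild type, a difference of 1.07 (SE 0.46, limma adjusted p = 0.162).

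**Figure D2:**
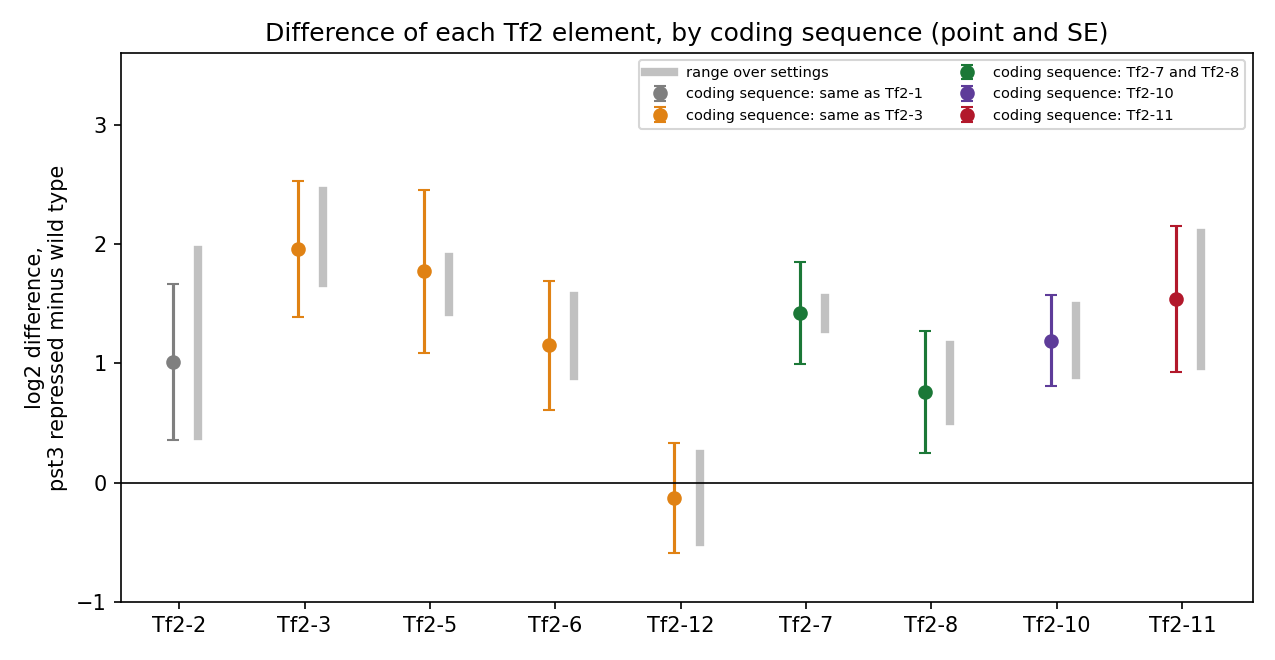
Points give the log2 difference (arrays labelled pst3 repressed minus wild type) with its SE for 9 elements, coloured and ordered by identical coding sequence, and grey bars give the range over all processing settings. Within the set of Tf2-3, Tf2-5, Tf2-6 and Tf2-12 the differences run from 1.96 to -0.13, which is as wide as the range over all 9 elements.

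Tf2-1 needs its own account because the name of its spot is in doubt. In the layout used for the pst3 repressed label, 192 positions carry names that look exchanged between pairs of pins. The signal percentiles there had an r of 0.04 with wild type over 168 names as deposited and of 0.68 once the names were exchanged, while all other positions had an r of 0.67 as deposited. Tf2-1 is one of these names, and its partner is the name spbc3f6.04c. Under the deposited names the Tf2-1 spot read 7.73 and 9.05 on the arrays labelled pst3 repressed, against 7.60 to 12.52 (median 11.55) in wild type, a difference of -2.64 (SE 1.04, limma adjusted p = 0.121). With the names put back, Tf2-1 read 12.70 and 11.92 on the arrays labelled pst3 repressed, against the same wild-type values, a difference of 1.27 (SE 1.03, limma adjusted p = 0.486). The direction therefore rests on which name is right, and Tf2-1 entered no count above. With the names put back, 2 of 10 elements were called higher (Tf2-3 and Tf2-7), where 4.92% of all features were. Its wild-type spread (SD 1.69, n = 8) was the widest of the 10 names.

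The spread of these probes was also read within and between the wild-type arrays. The log2 ratios between the channels of 1 array, both wild type, ran from -0.90 to 0.69 over the 10 probes and 7 arrays with both channels (4 for Tf2-11 and Tf2-12). No probe passed limma with Benjamini-Hochberg adjustment against 0 (0 of 10, with 0 of 10 at an unadjusted p under 0.05), and none of all 5042 features did (0.0%). Channels were numbered in the order of deposit, so the sign of a ratio has no fixed meaning over arrays. A ratio within an array also leaves out the spread between arrays. Nothing about the comparison of strain labels is therefore read from this test. Duplicate spots of a probe differed by a median of 0.15 on the log2 scale (148 pairs of spots). Between the wild-type prints, 1 of 8 elements passed. Tf2-2 was lower on replicates 6 to 8 (mean 9.64 ± 0.86, SD, n = 3) than on replicates 1 to 5 (11.16 ± 0.32, SD, n = 5), by a difference of -1.52 (SE 0.41, limma adjusted p = 0.0403), and 10.9% of all features differed. With the title code as a block the difference was -1.49 and no longer passed (limma adjusted p = 0.129). The 95th percentile of empty spots, net of local background, was 1589 on replicate 6 and 2692 on replicate 8, where the median feature had 2054.5 and 3743. It was 138 on replicate 7 and 0 to 697 on replicates 1 to 5. Tf2-2 lay at percentiles 19.4 and 27.5 of all features on replicates 6 and 8, and Tf2-3 at 20.3 on replicate 8. Whether these readings exceed empty spots was not tested. Set against replicates 6 to 8 alone, 4 of 7 elements were called higher under the pst3 repressed label (Tf2-2, Tf2-3, Tf2-5 and Tf2-10, background 9.44%). Set against replicates 1 to 5 alone, 1 of 9 was higher (Tf2-7, limma adjusted p = 0.0270, background 7.31%). Without wild-type replicate 3 the count was 3 of 9 (Tf2-3, Tf2-7 and Tf2-10, background 6.39%). With wild-type arrays of 1 title code averaged first, which left 4 wild-type samples, 4 of 9 were called higher (Tf2-3, Tf2-5, Tf2-7 and Tf2-10, background 10.2%).

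How alike were the copies? In each array the 7 elements carried by all arrays were compared by their spread, which includes the brightness of each spot. Their SD was 0.62 and 0.19 on the arrays labelled pst3 repressed, against 0.28 to 1.40 on the wild-type arrays. Their mean level was 12.15 and 12.22 on the arrays labelled pst3 repressed, against 10.36 to 11.36 in wild type, with no overlap. Among all features of an array the same 7 elements had a median percentile of 90.1 and 88.5 on the arrays labelled pst3 repressed, against 62.9 to 78.0 on the wild-type arrays.

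Across the 10 RNA arrays, pairs of these 7 elements had a median Pearson's r of 0.51 (21 pairs, -0.11 to 0.93), beside -0.01 over all pairs of 4536 features and 0.34 over 210 pairs of wtf probes. These arrays share prints, strain labels and normalisation, so r is given as a description. Over the 8 wild-type arrays alone the median was 0.13 (-0.59 to 0.98). Pairs with identical coding sequence were not the most alike, with a median r of 0.29 over 4 pairs, against 0.53 over the other 17. Tf2-7 and Tf2-8, identical and adjacent, had an r of 0.16, and in wild type -0.47. Tf2-6 and Tf2-8, which differ at 8 bases, had an r of 0.93. Tf2-2, Tf2-6 and Tf2-8 moved together in wild type (r of 0.83, 0.83 and 0.98), and apart from Tf2-5 and Tf2-7 (r of -0.31 to -0.59). This grouping was seen in the values and gets no test. On wild-type replicates 6, 7 and 8, in that order, Tf2-2 read 8.96, 10.62 and 9.37, Tf2-8 read 10.55, 12.37 and 11.07, and Tf2-6 read 9.34, 11.57 and 9.97, so that each was highest on replicate 7.

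**Figure D3:**
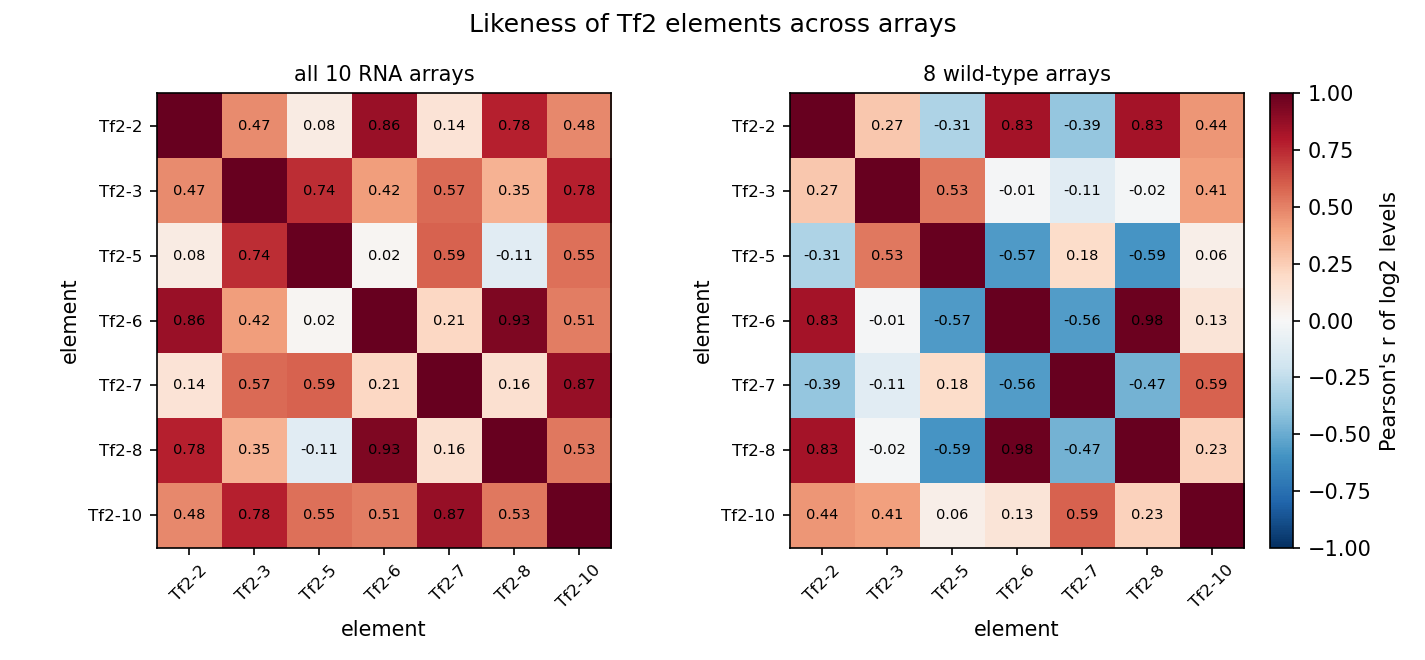
Each cell gives Pearson's r between the log2 levels of a pair of elements over all 10 RNA arrays (left) and over the 8 wild-type arrays (right), with elements ordered by identical coding sequence. The median of the 21 pairs is 0.51 on the left and 0.13 on the right, and Tf2-2, Tf2-6 and Tf2-8 stay alike in both.

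The features whose pattern over the 10 arrays was most like the mean of the 7 elements were grx1, a glutaredoxin gene (r = 0.980), psd2, which encodes a phosphatidylserine decarboxylase (0.974), lys3, a lysine biosynthesis gene (0.972), SPAC1705.02, which encodes an uncharacterized protein (0.972), and atp7, which encodes a subunit of ATP synthase (0.968). They are the highest of 4529 features. As the mean they were matched to separates the groups, their difference between the groups was largely fixed by the choice and is given as a description. It was 3.30 for grx1, 2.82 for psd2, 1.63 for lys3, 5.25 for SPAC1705.02 and 1.55 for atp7.

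SPAC1705.02 is also a neighbour of an element. It lies on the plus strand of chromosome I (1568815 to 1569449 in ASM294v3), 82 bases beyond the 5′ repeat of Tf2-2, which runs the other way on the minus strand. It read 14.01 and 13.49 on the arrays labelled pst3 repressed, against 8.27, 10.66, 9.94, 8.71, 9.30, 7.22, 6.89 and 7.02 in wild-type replicates 1 to 8. The groups did not overlap. The difference of 5.25 (SE 0.87) had a limma adjusted p of 0.00322 and passed in 23 of 25 settings. Tf2-2 itself, on the other side of that repeat, differed by 1.01 and did not pass. Its other neighbour, ire1, which encodes the sensor of unfolded proteins in the endoplasmic reticulum, differed by -0.22 (SE 0.43, limma adjusted p = 0.803).

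Of 24 genes next to an element 21 were tested, 1 rose and 1 fell, with a median difference of 0.13 beside -0.02 over all features. The gene that fell was SPBC1E8.03C, a neighbour of Tf2-10, which read 9.60 and 7.71 on the arrays labelled pst3 repressed, against 10.58 to 12.05 in wild type (difference -2.50, SE 0.51, limma adjusted p = 0.00918). Its nearest annotated repeat lies 2437 bases away. The share of neighbours called (2 of 21) is close to the 9.86% of all features.

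Other repeated genes were counted from lists of known genes. The wtf genes are a family of meiotic driver genes and pseudogenes, many of which are flanked by solo long terminal repeats of Tf elements. Of 21 tested wtf probes 6 rose and 0 fell, with a median difference of 1.24, where 4.93% of all features rose. They were wtf1 (2.95, SE 0.67, limma adjusted p = 0.0166), wtf11-pseudo (2.70), wtf7 (2.37), wtf8 (2.30), wtf4-pseudo (1.92) and wtf10-pseudo (1.51). wtf1 read 12.07 and 12.17 on the arrays labelled pst3 repressed, against 7.60 to 10.40 (median 9.54) in wild type. These calls rest on both arrays labelled pst3 repressed together. In each of the settings with print as a random block, no background correction and background subtracted, 3 wtf probes rose. The share of all features that rose in those settings was not counted. Against wild-type replicates 1 to 5 alone 9 rose, where 7.31% of all features did. The wtf copies share sequence, so their probes may not be independent.

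Genes known to act on Tf2 elements were counted in the same way. Of all features 4.93% fell and 4.93% rose, and 1 gene of each of the next 3 lists fell, so nothing is read from these counts. Of 29 tested Tf2 regulators 0 rose and 1 fell, with a median difference of -0.06. The one that fell was clr3, a histone deacetylase, which read 10.36 and 10.01 on the arrays labelled pst3 repressed, against 11.29 to 12.42 (median 11.74) in wild type (difference -1.61, SE 0.41, limma adjusted p = 0.0267). Those next in order were swd1 (1.78, adjusted p = 0.0531) and swd3 (-1.51, adjusted p = 0.0614), subunits of the Set1 histone methyltransferase complex. After them came slm9, a HIRA homolog (1.31, adjusted p = 0.107), and none of these passed in limma.

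Of 15 tested genes of heterochromatin and RNA surveillance 0 rose and 1 fell, with a median difference of -0.23. It was stc1, which links RNA interference to the histone methyltransferase Clr4 (-1.52, SE 0.45, limma adjusted p = 0.0489), while dcr1, the Dicer gene, differed by -0.52 (adjusted p = 0.458). Of 12 tested genes of the sterol and oxygen response 0 rose and 1 fell, erg27, a sterol synthesis gene (-2.04, SE 0.47, limma adjusted p = 0.0172), with a median difference of 0.09. The other members with the smallest p did not pass, among them sur2 (0.99, adjusted p = 0.188) and hem13 (-0.66, adjusted p = 0.358).

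**Figure D4:**
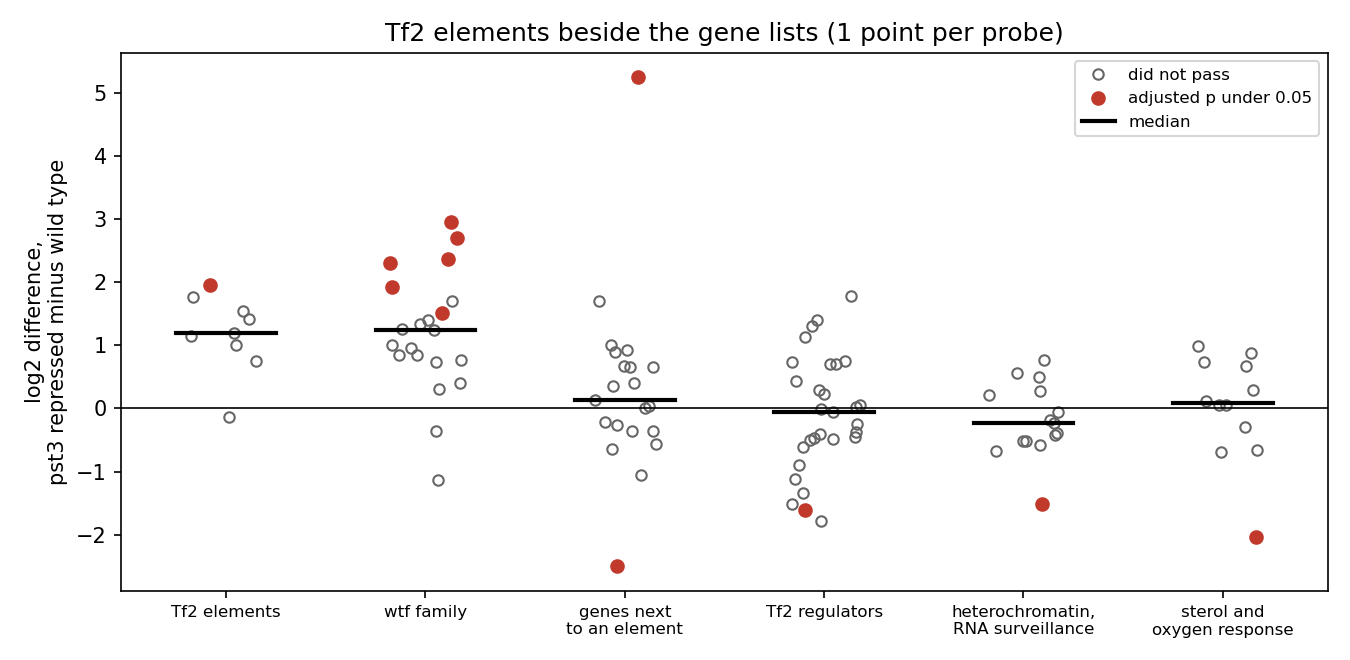
Each point is the log2 difference (arrays labelled pst3 repressed minus wild type) of 1 probe, filled red where the adjusted p is under 0.05, with a bar at the median of the list. The medians of the Tf2 elements (1.19) and of the wtf family (1.24) lie above those of the other lists, which lie between -0.23 and 0.13.

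On the arrays set against wild-type input, Pst3 at a Tf2 element was measured by 1 probe, the intergenic region named IGR-tf2-1. In the Pst3-GFP immunoprecipitates its log2 ratio over the deposited reference, centred on the array's median, was 0.32 on replicate 1 and -0.53 on replicate 2. The mean was -0.11 (SE 0.84, limma adjusted p = 0.999), beside 1.72% of 4941 regions called, so no difference from the other regions was detectable with 2 arrays. Over all regions the ratio had a Spearman's rho with the reference of -0.08 on replicate 1 and -0.91 on replicate 2. Its signal itself was high on both, with 2607 and 3173 on replicate 1 and 3712.5 and 3147 on replicate 2 (percentiles 86.3 to 96.7), but so was its reference, 1868.5 (percentile 90.6). The same reference value was deposited for this probe in every IGR sample, those of beads and H3 included. The ratio is therefore not over an input measured separately on each array. The sources used here do not give which dye the deposited channel of each array was, and it was taken as the immunoprecipitate.

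On the ORF probes of the Pst3-GFP beads slide the 10 Tf2 probes were compared by rank, with no test since there was 1 slide. The labels of 7-3 and 7-5 both name immunoprecipitate against beads and do not say which of these a deposited file holds. The values are therefore those of the files and not of Pst3-GFP as such. Log2 signals of 7-3 and 7-5 had an r of only 0.13 to 0.14 over all ORF probes, against 0.99 and 0.94 between the sets within 7-3 and within 7-5. The reference is 1 deposited value per probe, the same for every sample. It was 1928.5 to 4858 for 8 of 10 probes (percentiles 63.9 to 95.1), while Tf2-1 had 1241 and Tf2-2 had 930.5. The spot named spbc3f6.04c had a reference of 4759, close to that of Tf2-7. Whether names are exchanged on the ORF chromatin arrays too was not tested. In sample 7-3 the Tf2 signals lay 9.66-fold and 11.4-fold above the local background in median, and their ratio over the reference had a median percentile of 75.7 and 74.8 in the spot sets. In sample 7-5 the signals were 1.10 and 1.06 times the background in median, and the percentiles of the ratio were 18.3 and 20.1, where the ratio had a rho of -0.83 with the reference over all probes, against -0.33 in 7-3. Tf2-2, which has the lowest reference, had the highest ratio, at percentiles 90.2 and 90.5 in 7-3 and 89.5 and 88.8 in 7-5, and Tf2-1, the next lowest, lay at 54.8 and 51.9 in 7-5. In 7-5 the Tf2-2 signals were 1968 and 1895 over backgrounds of 1559 and 1673, so its rank there rests on little signal. Tf2-12 was the lowest of the 10 in 7-3 by signal (451 and 232). For the IGR-tf2-1 probe the percentile of the ratio was 77.3 in 7-3 and 26.4 and 25.6 in 7-5, and the deposited IGR sets of 7-3 were identical and counted once.

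On the H3 arrays the median Tf2 signal was close to background in each strain, and 2 to 4 of the 10 ORF probes exceeded 1.5 times it. The labels name anti-H3 against input in wild type, and input against H3 beads marked cterm in hst2D and hst4D. They do not say which of these a deposited file holds. The values below are therefore those of the files and not of H3 as such. Ratios over the deposited reference were low, with a median percentile over the 10 ORF probes of 16.8 and 27.7 in hst2D, 28.6 and 20.4 in hst4D, and 15.9 and 16.4 in wild type. By signal alone the medians were 56.2 and 53.3 in hst2D, 68.9 and 77.2 in hst4D, and 57.6 and 59.1 in wild type, while their reference had a median percentile of 86. Over all ORF probes the ratio had a Spearman's rho of -0.96 to -0.89 with the reference on these arrays. The Tf2 signals were 1.28 and 1.36 times the background in hst2D, 1.34 and 1.38 times in hst4D, and 1.24 and 1.45 times in wild type, in median. The 2 ORF files of a sample had an r of 0.33 in hst2D and 0.31 in hst4D, against 0.80 in wild type, while the second file of hst2D and the first of hst4D had an r of 0.76. On the IGR arrays the r was 0.18 within hst2D and 0.23 within hst4D, and 0.60 between their second files. The files are therefore given apart, and the strains were not compared.

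The IGR-tf2-1 probe behaved likewise. Its ratio over the reference lay at percentiles 6.03 and 7.35 in hst2D, 14.2 and 5.71 in hst4D, and 7.83 and 5.61 in wild type, with signals of 476 and 648.5 in hst2D, 742 and 580 in hst4D, and 987 and 859 in wild type. The order of the 10 ORF probes in wild type did not hold between settings. By ratio the spot named Tf2-1 was highest, at percentiles 71.1 and 66.1, but with normexp it lay at 74.3 and 24.3. With normexp Tf2-12 was highest in the second file, at 73.7. The spot named spbc3f6.04c lay at 3.17 and 5.46 by ratio, and whether its name is exchanged with Tf2-1 on these arrays was not tested. No order among the elements is read from these arrays.

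**Figure D5:**
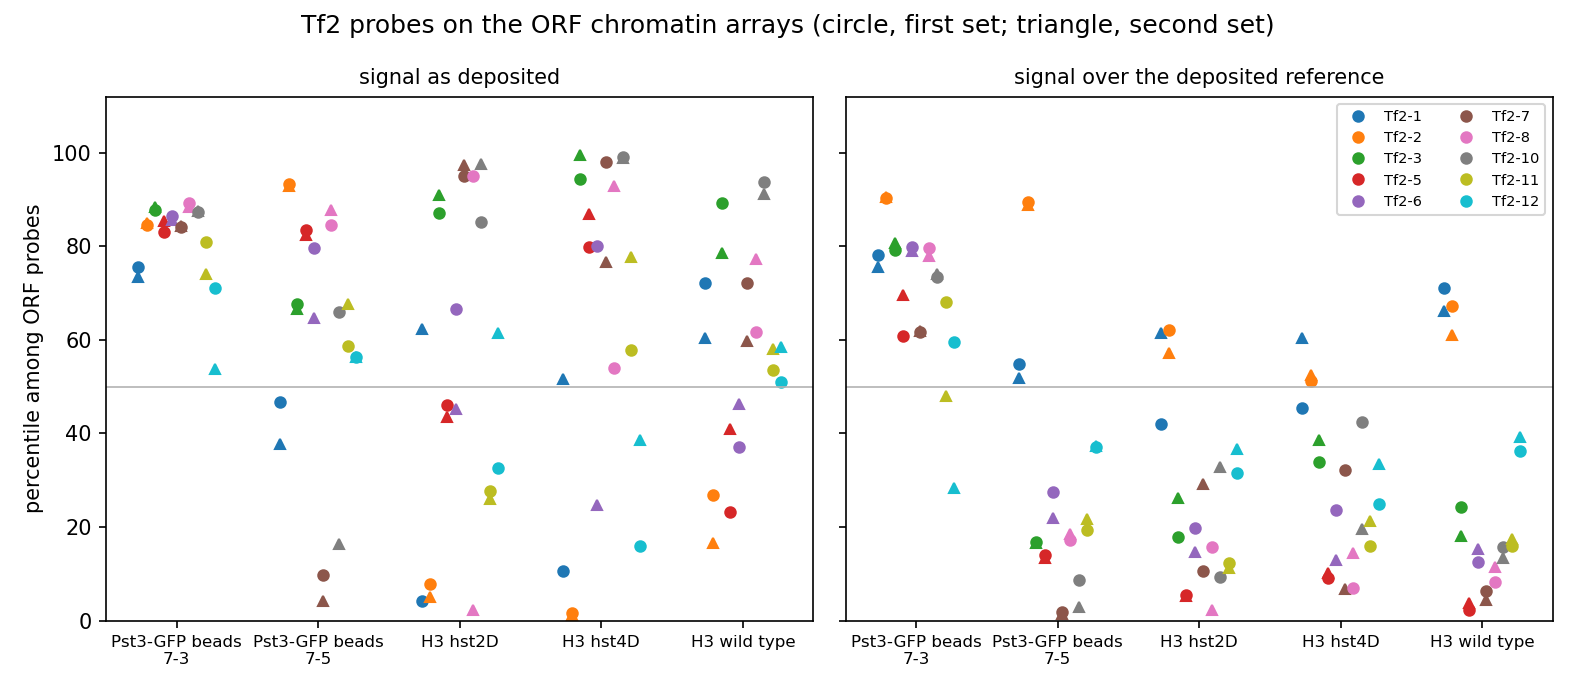
Percentile of each Tf2 probe among all ORF probes by signal (left) and by signal over the deposited reference (right), in the Pst3-GFP beads samples, the H3 samples of hst2D and hst4D, and the H3 sample of wild type, with circles and triangles for the deposited sets. By ratio most probes lie below the middle line in the H3 samples and above it in 7-3, and Tf2-2, the probe with the lowest reference, lies at 88.8 to 90.5 in both beads samples.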

How the data were processed

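Spotted-array scans were deposited by the authors as spot intensity, the median signal and local background per the file headers, with the authors' reference intensity per probe in the chromatin files. A scanner, its software and a genome build are not named in any label or header. The authors' deposited log2 value tables (22 columns, medians -6.64 to 0.88) number their rows without naming probes, leave centring and direction unknown, and entered no result. Members and gene lists were chosen with earlier results of these data known, and genes were named by the rule that takes list members that pass and up to 4 with the smallest p. RNA intensities were background-corrected by normexp with offset 50 (6 channels with background 0 in at least 90% of spots had the offset only), quantile normalised and averaged per array. limma 3.58.1 in R 4.3.3 tested 4707 features found on both arrays labelled pst3 repressed and at least 5 wild-type arrays, with Benjamini-Hochberg adjustment at 0.05. The fit excluded 2 features that never exceeded empty spots, and the names at 192 exchanged positions. Channel ratios used loess within arrays. Chromatin ratios were log2 of signal over reference, median centred. The fits were tested on simulated data. The number of arrays limits the precision.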

Additional observations from a re-analysis of the deposited data

Results flagged for a closer look

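Among the wild-type values of 10 Tf2 names, 1 array stood far from the others. Tf2-5 read 8.36 on wild-type replicate 1, against 10.06 on the nearest other wild-type array, a gap of 0.544 of the whole range over 8 arrays. Values of replicate 1 come from 1 channel and 1 spot set, while those of the other wild-type arrays are averages. Chance flags about 1 in 20 such groups, and 10 groups were examined. Without that array the difference of Tf2-5 was 1.43, with a limma adjusted p of 0.0495. On the same array Tf2-1 read 7.60, its lowest wild-type value, while Tf2-8 read 12.55, its highest. The 9 elements counted above had a range of 4.19 on that array, the widest of the 10 RNA arrays.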

How the results depend on the processing

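With 2 arrays labelled pst3 repressed, each call rests on single arrays, and no element was called in every setting. Where 1 of 9 Tf2 elements was called higher, the count was 0 with no background correction, with background subtracted, with median centring, with the first spot set and when print was a random block. It was 4 with wild-type replicates 6 to 8 alone (9.44% of all features were called higher) and 2 with all names kept. In settings chosen after seeing the data, it was 2 with the exchanged names put back (4.92% of all features) and 3 when wild-type replicate 3 was left out too. Also chosen then were arrays of 1 title code averaged, which gave 4 (10.2% of all features), and the code as a random block, which gave 2. For settings given here without a share it was not counted, so a change in the count may follow the general rate. Leaving out each array gave 0 to 3, with the lone remaining array labelled pst3 repressed assumed to vary like wild type. Tf2-12 was 0.16 with the second spot set, and leaving out arrays gave -0.50 to 0.24. Of channel ratios, Tf2-1, Tf2-3, Tf2-6 and Tf2-8 turned to 0.11, 0.05, 0.05 and 0.08 with median centring, where no element passed. Of the print difference, median centring gave -0.41 for Tf2-5 and -0.09 for Tf2-7, the title code as a fixed block gave -0.55 and -0.02 for these and 0 elements called, and leaving out arrays (added after seeing the data) gave 0 to 1 elements and -1.08 to 0.48 for Tf2-1, -0.45 to 0.50 for Tf2-5 and -0.16 to 0.51 for Tf2-7. The IGR-tf2-1 ratio of Pst3-GFP was 0.17 with normexp and 0.62 with background subtracted, and -0.53 to 0.32 without either array. With normexp the H3 medians became -1.50 and -1.81 (IGR) in hst2D, -1.36 (IGR) and -0.34 (ORF) in hst4D, and -1.78 (IGR), -1.29 and -1.10 (ORF) in wild type, and the beads medians 1.56 (IGR) and 1.48 and 1.49 (ORF) in 7-3, and -0.19 and 0.08 (IGR) and -1.20 and -1.22 (ORF) in 7-5. The median r between elements was 0.13 over wild type alone. The cause was not tested in any of these. The authors' value tables were not run as an alternative, having no probe names. No paired analysis was possible because replicate numbers were given in accession order and no title code is shared by both strain labels.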
